A study of Rattus norvegicus with 6 samples.

Results

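The heat shock proteins and their DnaJ cochaperones were followed in rat retinal ganglion cells, which carry the output of the retina to the brain through the optic nerve. Members were taken by gene symbol: the families Hspa, Hspb, Hspd and Hspe with a number, Hsph1, Hsp90 and every symbol that starts with Dnaj. On the platform, 96 probe sets with a single gene symbol fitted this rule and stood for 62 genes, 23 heat shock proteins and 39 DnaJ genes, of 14217 genes in all. The brightest probe set of each gene represented it. Affymetrix arrays had been hybridised with amplified RNA of cells cut out by laser capture from adult male Brown Norway rats, 2000 cells per eye, marked beforehand by Fluorogold carried back along the axon. In each rat 1 eye had been injected with hypertonic saline through an episcleral vein, which raised its pressure for 10 days as a model of glaucoma, and the fellow eye was the control. The groups were the left eye (OS, 3 arrays) and the right eye (OD, 3 arrays) of rats 1 to 3. The labels used here do not say which eye of a rat had the raised pressure, so a difference between eyes has no direction with respect to pressure, and effects of pressure would partly cancel if the treated side varied between rats.

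Heat shock proteins keep other proteins folded. Hsp70 proteins bind unfolded stretches in a cycle driven by ATP. DnaJ proteins, all of which carry a J domain, deliver the substrate and start ATP hydrolysis, and Hsp110 proteins release the nucleotide. Hsp90 acts on late folding states of kinases and receptors, Hsp60 with its lid Hsp10 encloses proteins in mitochondria, and small Hsps hold unfolded proteins without ATP. The cytosol, the endoplasmic reticulum (ER) and the mitochondrion each have their own set. In neurons, some DnaJ proteins work on synaptic vesicles and clathrin coats.

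A pair of regulatory sequences is known for these compartments. The heat shock factor Hsf1 binds the heat shock element, alternating GAA and TTC units, in genes of the cytosolic and mitochondrial set, and the unfolded protein response acts on the ER stress element. Both were searched in the 250 bases before the gene start given by RefSeq on build GRCr8, on both strands, as GAA, TTC and GAA with any 2 bases between neighbours, and as CCAAT and CCACG with any 9 bases between them. In the members, no match of the heat shock element shares bases with a match of the ER stress element. Promoters were found for 51 of the 62 genes. The heat shock element was present in 3 of these (5.88%), Hspd1, Hspe1 and Hsph1, and in 0.663% of all 33469 promoters in the table. The ER stress element was present in 3 (5.88%), Hspa5, Hsp90b1 and Dnajc3, all of the ER set, and in 0.0657% of all promoters. The matches are shown because the heat shock element fell in mitochondrial and cytosolic genes and the ER stress element in ER genes. Most of the 51 promoters, 45, held neither, so the elements do not part the compartments as a whole. Each match is in capitals, with 20 bases on either side.
Hspe1, chr9:64084242-64084299, plus strand: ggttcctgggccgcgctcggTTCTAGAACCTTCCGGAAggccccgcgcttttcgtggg
Hsph1, chr12:10427312-10427364, plus strand: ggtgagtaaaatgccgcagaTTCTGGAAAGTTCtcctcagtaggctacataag
Hspa5, chr3:38452953-38453011, plus strand: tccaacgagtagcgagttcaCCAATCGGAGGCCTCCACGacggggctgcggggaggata
Dnajc3, chr15:102432514-102432572, plus strand: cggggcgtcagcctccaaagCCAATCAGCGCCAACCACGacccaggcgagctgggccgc
Hsp90b1, chr7:23012327-23012489, minus strand: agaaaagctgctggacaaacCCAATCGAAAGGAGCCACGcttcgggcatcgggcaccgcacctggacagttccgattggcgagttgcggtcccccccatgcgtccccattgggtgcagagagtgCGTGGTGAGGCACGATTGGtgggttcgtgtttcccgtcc
The run in Hspe1 holds 2 overlapping matches, which are also the 2 matches of Hspd1, since these genes lie head to head and share this DNA on opposite strands. Hsp90b1 holds 2 separate matches, 1 on each strand.

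Values are intensities on a linear scale, scaled by the submitters so that every array has the same trimmed mean, and differences are of log2(intensity + 16), OS minus OD within a rat. Each array's background limit was set from 27 probe sets for bacterial RNAs absent from the sample, at their 95th percentile. The limit was 399.6, 547 and 409 on the OS arrays of rats 1 to 3, against 261, 591 and 293 on their OD arrays. Of the 62 genes, 9 exceeded the limit on all 6 arrays (14.5%, against 15.7% of all 14217 genes): Dnaja1, Dnajb6, Dnajc1, Dnajc5, Dnajc8, Hsp90b1, Hspb7, Hspd1 and Hsph1. Another 7 exceeded it on no array, where 10.5% of all genes did, namely Dnajb13, Dnajc18, Dnajc21, Dnajc22, Hspa1l, Hspa2 and Hspa4l. Hspa1l and Hspa2 are known as Hsp70 forms of the testis, and Dnajb13 as a protein of sperm tails. The number above the limit was 28, 27 and 29 on the OS arrays of rats 1 to 3, against 47, 27 and 43 on their OD arrays. The eyes of rat 2 were alike in this count, while in rats 1 and 3 the OS count was far below the OD count. In rats 1 and 3 the limit was also higher in OS, and its part in the counts was not tested. Over all genes the shares were 53.0%, 40.8% and 54.1% in OS, against 65.6%, 41.1% and 61.9% in OD, a smaller gap between the eyes of rats 1 and 3 and again next to none in rat 2.

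**Figure D1:**
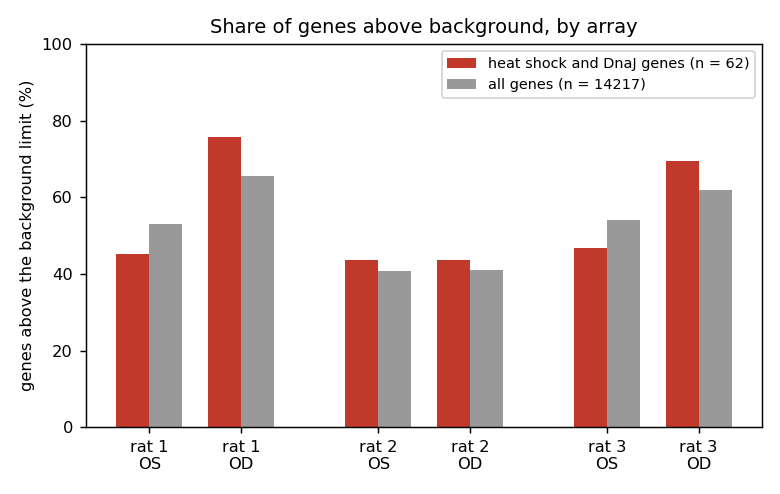
Share of genes above each array's background limit in percent (vertical axis), for the 62 heat shock and DnaJ genes (red) and all 14217 genes (grey), by rat and eye. In rats 1 and 3 the heat shock and DnaJ genes lie below all genes in OS and above them in OD, and in rat 2 both eyes are at 43.5% for these genes.

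The heat shock and DnaJ genes leaned lower in OS, and none passed the test. Of the 42 that were bright enough to be tested, 32 (76.2%) had a lower mean in OS and 10 a higher one, where 53.7% of the 8594 genes tested had a lower mean. The median difference was -0.53, against -0.07 over all genes tested. In rats 1 to 3 the medians of the 42 were -0.31, -0.31 and -0.61, against -0.11, -0.05 and 0.01 over all genes. Over all 62 genes, with no filter, 45 (72.6%) had a lower mean in OS, against 50.7% of all genes, with a median of -0.52. Without rat 3 the lower means numbered 25 of 42 (59.5%, against 53.4% of all genes) and the median was -0.26. No test was made of the lean of this list.

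By family, both mitochondrial chaperonin genes, both Hsp110 genes tested and the 2 of 7 small Hsps that were tested had a lower mean in OS. So did all 3 DnaJA genes and 5 of 6 Hsp70 genes tested, where 53.7% of all genes tested had a lower mean. Several of these had a higher mean with 1 rat left out, among them Hspd1, Hsph1, Hspa4, Hspa1a, Hspa5 and Dnaja1. Of the Hsp90 genes, Hsp90ab1 differed by 1.52 and Hsp90b1 by 0.13, the second turning to -0.15 without rat 2, and a brighter probe set shared by Hsp90aa1 and a pseudogene, not counted as a member, differed by -0.23. DnaJB genes were split into 6 lower and 3 higher, and DnaJC genes into 12 lower and 4 higher.

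By limma, 0 of the 42 passed an adjusted p of 0.05, where 0.0116% of genes tested and 0.0129% of probe sets tested did. At an unadjusted p under 0.05 there were 2 (4.76%), Dnajc6 and Dnaja3, against 6.94% of genes tested. A total of 8 genes were lower in OS in 3 of 3 rats (19.0%, against 15.6% of genes) and 4 were higher in 3 of 3 rats (9.52%, against 13.1%). With a mean of at least 2-fold as well, 5 were lower (against 8.6% of genes) and 2 higher (against 6.57%). The eyes did not overlap in 6 of the 42 (14.3%, against 10.5%). These shares lie near those of all genes. The OS arrays of these genes were spread more widely than the OD arrays, with a median SD of 1.24 over the 3 OS arrays and 0.72 over the 3 OD arrays, against 0.79 and 0.74 for all genes tested. The wider spread comes with single OS values close to the bottom of the scale, given below for genes whose intensities are listed. Among tested genes not listed that way, OS of rat 3 had 41.2 for Dnajb5, 35.8 for Dnajb12 and 63.9 for Dnajb14. It also had 72.7 for Hspa13, 47.1 for Dnajc14, 80.1 for Dnajc11 and 89.5 for Dnajc24. OS of rat 2 had 49.7 for Dnajc27, and OD of rat 2 had 58.2 for Dnajc24.

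**Figure D2:**
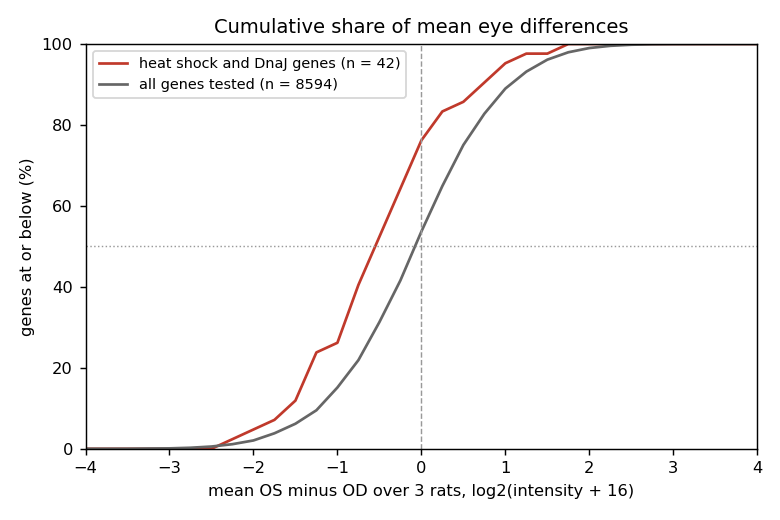
Cumulative share of genes in percent (vertical axis) by mean difference OS minus OD over 3 rats on the log2(intensity + 16) scale (horizontal axis), for the 42 tested heat shock and DnaJ genes (red) and all 8594 genes tested (grey). The red line lies left of the grey one through the middle, and at a difference of 0 it stands at 76.2%, against 53.7%.

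Both tested cochaperones of vesicles and clathrin coats had lower values in OS in every rat, short of the test's threshold. Dnajc6 encodes auxilin, the neuronal protein that calls Hsc70 to clathrin coats for uncoating. Its intensity was 1510.3, 1017 and 96.5 in OS of rats 1 to 3, against 2518, 1991 and 4541 in OD. All 3 OS values lay below all OD values, and the value of 96.5 lay below the background limit of its array. The difference was -2.34 ± 2.60 (SD, n = 3 rats, limma adjusted p = 0.381, 95% interval -3.79 to -0.90), the smallest p of the 42 genes. The interval rests mainly on pooled variance, and the SD of Dnajc6 over rats exceeded the size of its difference. The size rested on rat 3: without it the difference was -0.84 with an adjusted p of 0.917, while without rat 1 it was -3.15 and passed at 0.0377. A second Dnajc6 probe set, below the limit on all 6 arrays, differed by 0.46, and with both averaged the difference was -0.94.

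Dnajc5 encodes the cysteine string protein, which guards the fusion machinery of synaptic vesicles. It had intensities of 1360.0, 652 and 1486 in OS, against 1618, 1544 and 4089 in OD, so again every OS value was below every OD value. The difference was -0.97 ± 0.64 (SD, n = 3 rats, limma adjusted p = 0.735). Its other 2 probe sets were below the limit on all arrays and had means on opposite sides of 0, and with all 3 averaged the difference was -0.54. Dnajc13, which encodes an endosomal DnaJ protein, was too dim to be tested, at 338, 144 and 764 in OS, against 771.5, 135 and 14.5 in OD (1.20 ± 3.07). Gak, the auxilin relative of all tissues and no member by symbol, is named because its p was among the 2 smallest of 26 partner genes tested. It had 1329, 1432 and 628 in OS, against 1673, 2100.2 and 2943 in OD. Its difference was -1.03 ± 1.02 (limma adjusted p = 0.735). The eyes did not overlap, which held for 1 of those 26 genes (3.85%, against 10.5% of all genes tested).

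All 9 mitochondrial genes were bright enough to be tested, 7 with a lower and 2 with a higher mean in OS, at a median of -0.71. Dnaja3, also called Tid1, is the class A DnaJ partner of mitochondrial Hsp70. It measured 34.6, 1107 and 60.2 in OS, against 515, 1269.9 and 567 in OD, so OS was at the bottom of the scale in rats 1 and 3 and close to OD in rat 2. The difference was -2.17 ± 1.73 (SD, n = 3 rats, limma adjusted p = 0.719, unadjusted p = 0.047).

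Hspd1 and Hspe1 encode Hsp60 and its lid Hsp10 and share the promoter shown above. Hspd1 had 2022, 973 and 849 in OS, against 1602, 826 and 1758 in OD, above the limit on all 6 arrays. It was higher in OS in rats 1 and 2 and lower in rat 3, with a difference of -0.16 ± 0.76 (limma adjusted p = 0.964, 95% interval -1.28 to 0.97). Hspe1 had 605, 28.6 and 1128 in OS, against 883, 498 and 1837 in OD. It was lower in OS in 3 of 3 rats, by -1.59 ± 1.68 (limma adjusted p = 0.733), and without rat 2 by -0.61.

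Hspa9, mortalin, is the Hsp70 of the mitochondrial matrix and of the import motor. It had 84.0, 776 and 1284 in OS, against 352, 264 and 241 in OD, higher in OS in rats 2 and 3 only. The difference was 0.65 ± 2.23 (limma adjusted p = 0.915). Of its 4 probe sets 3 had a higher mean in OS and 1 differed by -2.90, so its direction is uncertain. The remaining mitochondrial genes, Dnajc4, Dnajc11, Dnajc15, Dnajc19 and Dnajc30, differed by -0.95 to 0.15. Among them Dnajc15, a DnaJ protein of the inner membrane, had 328, 83.6 and 951 in OS, against 506, 29.6 and 993 in OD, low in both eyes of rat 2.

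The ER set was divided, with 6 of 9 tested genes lower and 3 higher in OS at a median of -0.55, and 4 further genes too dim to test. Dnajb11 encodes ERdj3, a soluble DnaJ partner of BiP. It had 2495, 1451 and 577 in OS, against 1059, 589 and 312 in OD. OS was about equally far above OD in each rat, by 1.12 ± 0.23 (SD, n = 3 rats, limma adjusted p = 0.744), the most even of the differences of at least 2-fold. Dnajc1, a DnaJ protein of the ER membrane chosen here after its values were seen, had 1145, 1043 and 1022 in OS, against 534, 685 and 612 in OD. The eyes did not overlap, at a difference of 0.80 ± 0.25 (limma adjusted p = 0.814). Its other 2 probe sets were dimmer, and 1 of them had a lower mean in OS.

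Hspa5, which encodes BiP, the Hsp70 of the ER, had 885, 17.8 and 427 in OS, against 558, 583 and 557 in OD. The OD values were nearly the same in all rats, while OS was high in rat 1 and at the bottom of the scale in rat 2. The difference was -1.29 ± 2.53 (limma adjusted p = 0.826), and without rat 2 it was 0.14. Hsp90b1, which encodes Grp94, the Hsp90 of the ER, had 946, 1019.7 and 1213 in OS, against 1257, 620.1 and 1134 in OD. It was above the limit on all arrays with overlapping eyes and a difference of 0.13 ± 0.55 (limma adjusted p = 0.972, 95% interval -1.06 to 1.32).

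Of the other ER genes tested, Dnajb12, Dnajb14, Hspa13 and Dnajc14 had lower means in OS, by -0.29 to -1.39. All OS values of Dnajb12, a DnaJ protein anchored in the ER membrane, were at or below the limit. Against the limit its mean over rats was at least 1.10-fold higher in OD. In rat 1 the eyes were alike, at 368 in OS and 365 in OD. The Dnajb12 difference was -1.29 ± 1.81 (limma adjusted p = 0.832), and its dimmer probe set, below the limit on all arrays, differed by 0.18. Dnajb9, or ERdj4, an unfolded protein response gene that represses the sensor Ire1, had 327, 146 and 1352 in OS, against 566, 488 and 793 in OD. It was lower in OS in rats 1 and 2 and higher in rat 3, by -0.55 ± 1.21 (limma adjusted p = 0.907). Without rat 2 the difference was -0.0029 and without rat 3 it was -1.20. Dnajc3, P58IPK of the ER lumen, was too dim to test, at 151, 47.1 and 486 in OS, against 355, 66.6 and 519.6 in OD. So the 3 genes with the ER stress element gave differences of -1.29, 0.13 and -0.54 for Hspa5, Hsp90b1 and Dnajc3, and the 3 with the heat shock element gave -0.16, -1.59 and -0.10 for Hspd1, Hspe1 and Hsph1.

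In the cytosol and nucleus 22 of 37 genes were tested, 17 lower and 5 higher in OS, at a median of -0.48. Hspa1a, the stress-inducible Hsp70, had 391, 96.4 and 681 in OS, against 527, 107 and 538 in OD. Rat 2 was low in both eyes, and the difference was -0.07 ± 0.38 (limma adjusted p = 0.992, 95% interval -2.21 to 2.06). A brighter probe set shared by Hspa1a and Hspa1b, not counted as a member, had 769, 138 and 2589 in OS. Its OD values were 565.5, 560 and 532, and it differed by 0.26 ± 2.08 (limma adjusted p = 0.959). It was lower in OS in rat 2 and higher in rats 1 and 3. The Hsp110 gene Hsph1 had 774, 1639 and 801 in OS, against 1116, 1119.6 and 999 in OD, all above the limit, with a difference of -0.10 ± 0.56 (limma adjusted p = 0.984, 95% interval -1.27 to 1.08), or -0.62 with its probe sets averaged. Another Hsp110 gene, Hspa4, had 85.6, 395 and 550 in OS, against 317, 799.7 and 185 in OD, with directions that differed between rats (-0.40 ± 1.68, limma adjusted p = 0.953). Hspa12a, a distant Hsp70 relative named here after its values were seen, had the most even difference among the Hsp70 genes tested, -0.52 ± 0.09 (limma adjusted p = 0.917).

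Hsp90ab1, the constitutive cytosolic Hsp90, had a higher mean in OS. It had 445.2, 597 and 444.9 in OS, against 377, 268 and 33.6 in OD. Every OS value was above every OD value, but only the OD array of rat 1 exceeded the background limit in OD, and the OD value of rat 3 lay far under it. The difference was 1.52 ± 1.53 (SD, n = 3 rats, limma adjusted p = 0.810), and without rat 3 it was 0.67. A dimmer probe set of the gene, below the limit on all arrays, differed by -0.02.

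Among the cytosolic DnaJ genes, Dnaja1, a class A partner of Hsc70, had 689.6, 632 and 435 in OS, against 485, 889 and 667 in OD (-0.20 ± 0.60, limma adjusted p = 0.967). A dimmer Dnaja1 probe set that was also tested had 108, 294 and 64 in OS, against 738, 777 and 283 in OD, with no value above the limit in OS of any rat. It differed by -1.95 ± 0.63, lower in OS in 3 of 3 rats (limma adjusted p = 0.773), and with both averaged the difference was -1.08. Dnajb1, the stress-inducible Hsp40, had 876, 255 and 1262 in OS, against 458, 1220.2 and 1373 in OD. It was higher in OS in rat 1 and lower in the others (-0.47 ± 1.58, limma adjusted p = 0.907). Dnajb2, a class B protein rich in neurons that passes clients to the proteasome, had 309.5, 621 and 2146 in OS, against 1629, 1616 and 1239.5 in OD. It was lower in OS in rats 1 and 2 only (-0.97 ± 1.60, limma adjusted p = 0.799), and the difference was -0.29 without rat 1 and -1.85 without rat 3. Its other probe set, also tested, differed the other way, by 0.64 ± 2.17 (limma adjusted p = 0.922), and with both averaged the difference was -0.16.

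Dnajc2 encodes a DnaJ protein that works at the ribosome. Its OS values of 137, 189 and 223 were all at or below the background limit, and its OD values of 418, 1321 and 508 were all above it. The fitted difference was -1.78 ± 0.82 (limma adjusted p = 0.751), and against the limit the mean over rats was at least 1.45-fold higher in OD than in OS. Its other probe set, below the limit on all arrays, had a higher mean in OS. The remaining cytosolic DnaJ genes tested lay between -1.62 for Dnajb5 and 0.92 for Dnajc7.

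Few small Hsps were measurable, with 2 of 7 tested. Hspb6, or Hsp20, had 226, 519.5 and 448 in OS, against 966.5, 1037 and 838 in OD. The eyes did not overlap, at a difference of -1.29 ± 0.63 (limma adjusted p = 0.763). Hspb7, a small Hsp known from heart muscle, had 1441, 622 and 916 in OS, against 1358, 1632 and 1041 in OD, all above the limit, and differed by -0.49 ± 0.77 (limma adjusted p = 0.879). Hspb1, or Hsp27, was not tested. Its intensity was 28.8, 228 and 1736 in OS, against 128, 80.7 and 94.2 in OD, so only the OS array of rat 3 was above the limit. Hspb8, the small Hsp that pairs with Bag3, was not tested either, at 465, 38.2 and 27.9 in OS, against 267, 541 and 405 in OD. The related lens and glial protein gene Cryab had 961, 494 and 894 in OS, against 1349, 545.1 and 1248 in OD (-0.36 ± 0.20, limma adjusted p = 0.920).

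**Figure D3:**
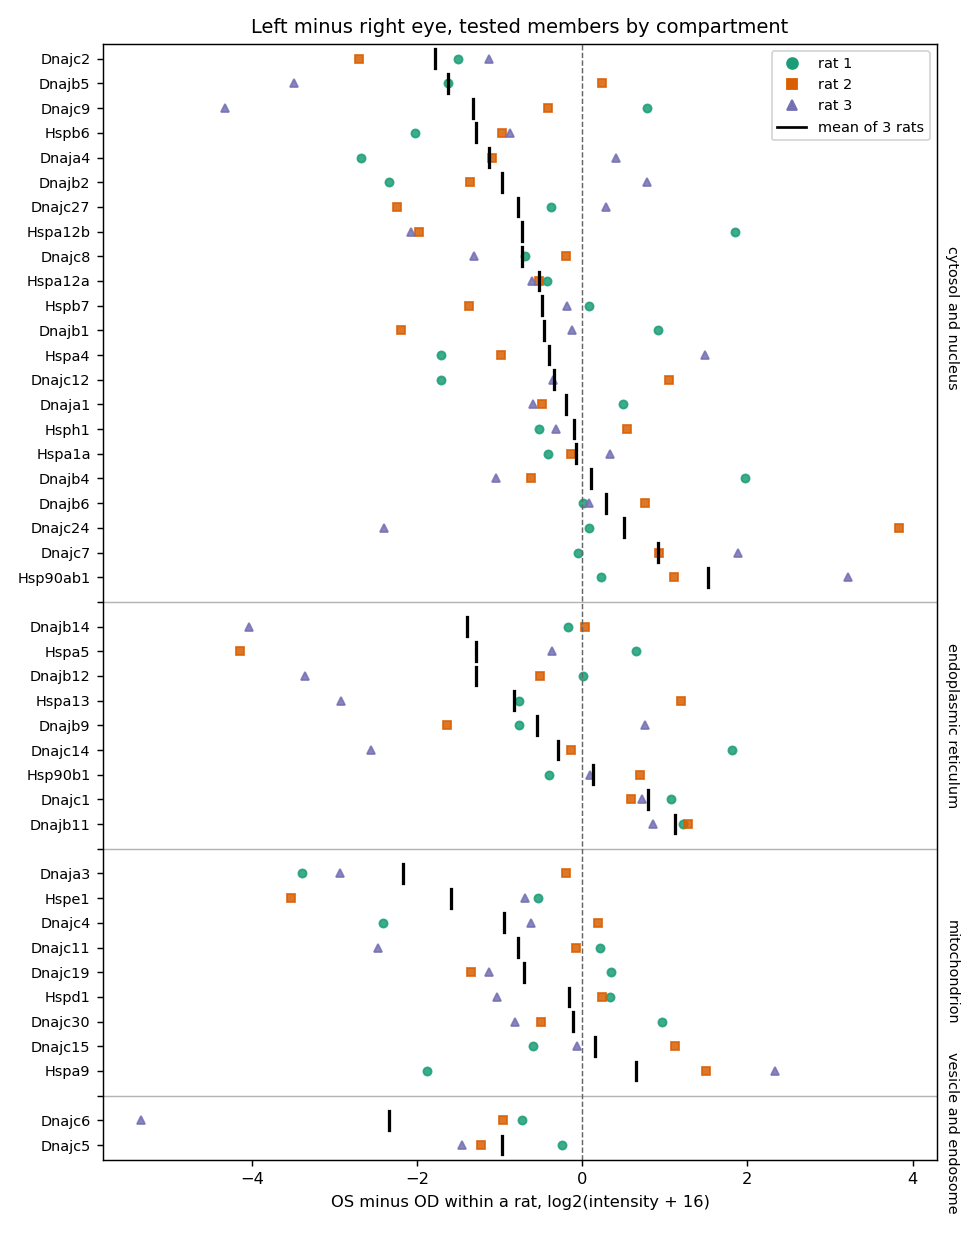
Difference OS minus OD within each rat on the log2(intensity + 16) scale (horizontal axis) for the 42 tested genes, grouped by compartment. Points are rats and black bars the mean of 3 rats. Most bars lie left of 0, and for 30 of the 42 genes the rats fall on both sides of 0.

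**Figure D4:**
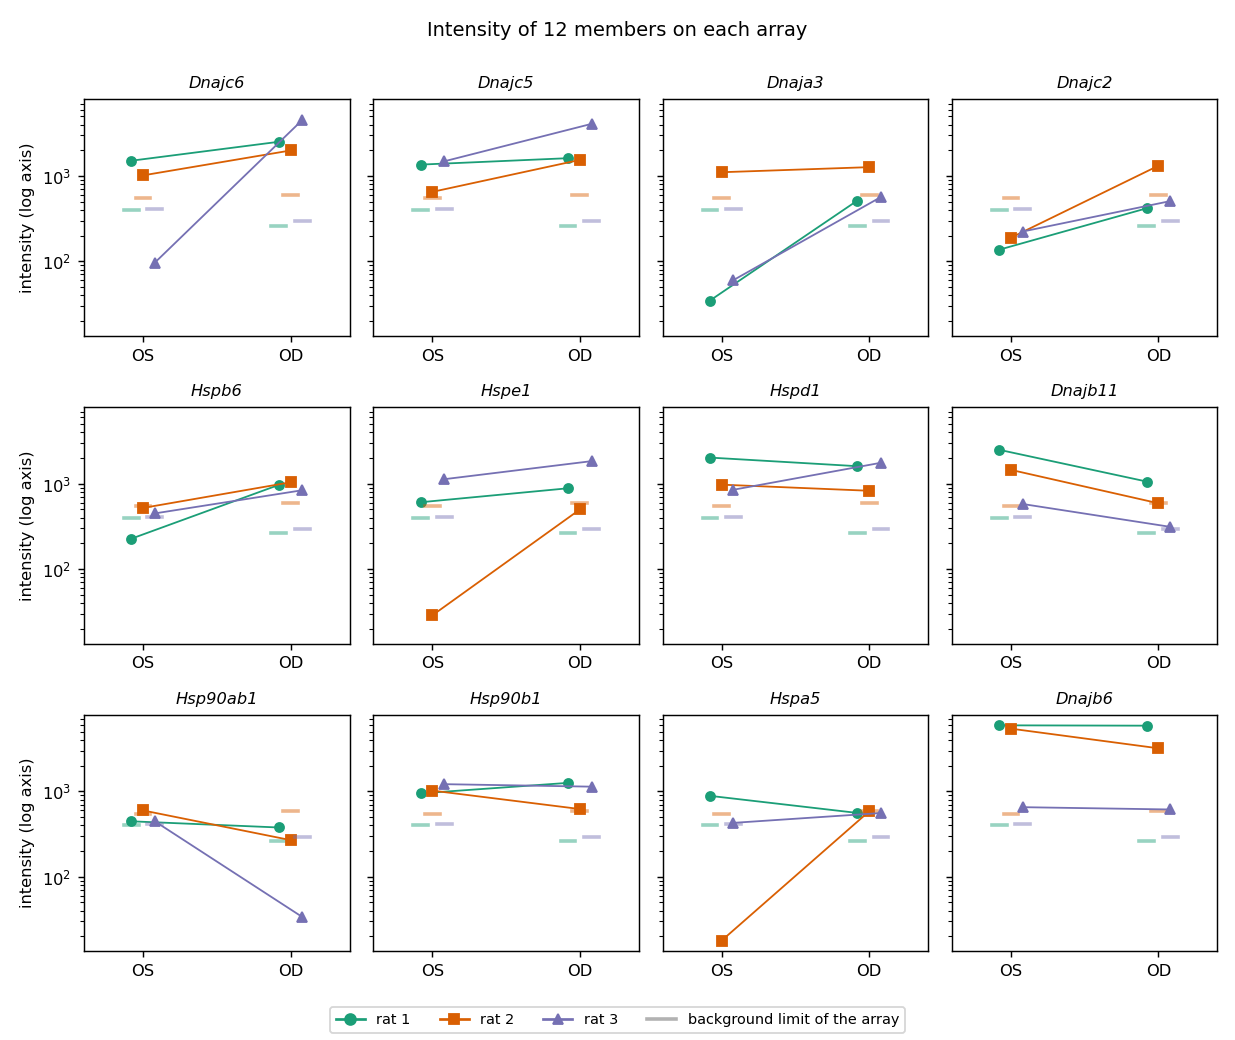
Intensity on a log axis for 12 genes on each of the 6 arrays, OS left and OD right, with lines joining the eyes of a rat and short bars at each array's background limit. Dnajc6, Dnajc5, Dnajc2 and Hspb6 have every OS point below every OD point, Hsp90ab1 has every OS point above, and both points of rat 3 are far below the others for Dnajb6. The 12 genes were picked by hand. Over the 42 genes tested the eyes did not overlap in 6 (14.3%, against 10.5% of all genes tested).

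Rats differed more clearly than eyes for a single gene. Dnajb6 encodes a DnaJ protein known for keeping polyglutamine proteins from aggregating. Its OS intensities were 5941, 5428 and 652 in rats 1 to 3, against 5886.5, 3195 and 613 in OD. Both eyes of rat 3 were far below the other 4 arrays, while the eyes differed by 0.29 ± 0.41 (limma adjusted p = 0.914), and by 0.05 without rat 2. The difference among rats passed limma's F-test (adjusted p = 0.00205), as the single such gene of the 42 (2.38%, against 1.29% of genes and 2.51% of probe sets tested). Without rat 3 the adjusted p was 0.998, and without the intensity trend in the variance prior it was 0.322. The arrays of rat 3 also stand apart as a whole: 390 probe sets passed the same test, and 6 without rat 3. What part this has in the value of Dnajb6 was not tested. The annotation lists a pair of Dnajb6 pseudogenes, and signal from such copies cannot be told apart. A probe set shared with both had 527, 634 and 285 in OS, against 579, 773 and 38.4 in OD, and its difference among rats did not pass (adjusted p = 0.521). Another one shared with both had 320, 572 and 112 in OS, against 355, 294 and 280.5 in OD, and did not pass the F-test either (adjusted p = 0.897). Next by p among rats were Hspe1, Dnajc15 and Dnajb11, with adjusted p of 0.175, 0.272 and 0.401.

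Where a gene had several probe sets, these often disagreed. All probe sets of a gene had the same sign of the mean difference in 9 of 25 genes with more than 1. Of the 34 other probe sets, 0 exceeded the background limit on all 6 arrays and 13 exceeded it on none. With all probe sets of a gene averaged, 32 members were bright enough to test, 27 of them with a lower mean in OS.

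Partners of these chaperones, from lists that hold no member, were also without calls. Of 36 genes for heat shock factors, nucleotide exchange factors and Hsp90 cochaperones, 26 were tested: the mean in OS was lower for 14 and higher for 12, the median was -0.14, 0 passed limma and 1 had an unadjusted p under 0.05. That gene was Chordc1, which encodes an Hsp90-binding protein, with 111, 203 and 567 in OS, against 530.5, 1482.5 and 1769.9 in OD (-2.16 ± 0.58, limma adjusted p = 0.549). Of 13 genes for the cytosolic chaperonin and prefoldin, 10 were tested, 7 lower and 3 higher, with a median of -0.24, 0 passing limma and 1 with an unadjusted p under 0.05. The chaperonin subunit genes Cct5 (2.05 ± 2.32, limma adjusted p = 0.537) and Cct3 (-1.80 ± 2.11, limma adjusted p = 0.738) lay on opposite sides. Of 15 ER folding and stress genes 12 were tested, 8 lower and 4 higher, with a median of -0.18, 0 passing limma and 1 with an unadjusted p under 0.05. The disulfide isomerase gene P4hb differed by -1.67 ± 1.25 (limma adjusted p = 0.672) and the stress transcription factor gene Ddit3 by -1.45 ± 1.45 (limma adjusted p = 0.735). The genes named from each list had its smallest p for OS against OD. Lower means made up 53.8%, 70% and 66.7% of the genes tested in these lists in turn, against 53.7% of all genes tested. An unadjusted p under 0.05 held for 3.85%, 10% and 8.33%, against 6.94% of all genes tested, of which 0.0116% passed limma. Whether these lists differ from the members was not tested.

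Other measures moved with the eye beside the lean of the chaperone genes. Intensities of 15 ganglion cell markers, the labelled cell type, summed to 19911 to 26356 in OS, against 28794 to 44229 in OD, with 11 to 14 of them above the limit in OS and 11 to 15 in OD. The sums were also lower in OS for 9 amacrine cell markers, at 11545 to 16838 in OS, against 25231 to 62876 in OD, with 4 to 5 above the limit in OS and 5 to 7 in OD. For 11 pigment epithelium and lens markers the sums were 3807 to 4600.1 in OS, against 9141 to 22261 in OD, with 3 to 4 above the limit in OS and 4 to 10 in OD. Sums of glial, microglial, photoreceptor, bipolar and vascular markers overlapped between eyes, and 0 probe sets in the table were listed at 0. By gene, the mean in OS was higher for 5 of 5 bipolar and 4 of 6 microglial markers tested. It was higher for 4 of 8 glial, 6 of 11 photoreceptor and 3 of 6 vascular ones. It was lower for 12 of 14 ganglion cell, 3 of 5 amacrine and 6 of 6 pigment epithelium and lens ones. The 3' over 5' ratio of the beta-actin control, a measure of RNA integrity and amplification, gave log2 differences of 1.32 ± 0.52 between OS and OD (SD, n = 3), with OS above OD in each rat. The part of these in the differences of the chaperone genes was not tested. Fewer cells of a type and less RNA per cell cannot be told apart in such pools.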

How the data were processed

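Each of 6 arrays held RNA of captured ganglion cells from 1 eye, amplified linearly before labelling with biotin, per the labels' protocols. The deposited values are intensity values, 1 per probe set, with no detection calls. GCOS is the tool named, per the submitters' processing notes, and no source used here gives its version. Trimmed means were equal on all arrays, so the values were taken as scaled to a common target by the authors. The number of arrays limits the precision.

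Control probe sets (57) were left out. Of 31042 others, 20826 have 1 gene symbol in the platform annotation. An offset of 16 was added before log2, which understates differences of dim genes. The 15521 probe sets at or above the median mean log2 value entered a two-sided test in limma (3.58.1, under R 4.3.3) with rat as a fixed block and an intensity trend. P-values were adjusted over all of them by Benjamini-Hochberg. With 2 residual against 19.4 prior degrees of freedom, the p-values and intervals rest mainly on variance pooled over probe sets. The block removes differences between rats, so a gene's own part is the spread of its eye difference over rats. That part is small here, and the SD beside each difference shows it. Both eyes of a rat share its number because they come from 1 animal, as titles and design give it. Deviations from eye means correlated between eyes at 0.109, 0.122 and 0.326 in rats 1 to 3. Rats were compared by limma's F-test in the same fit. The script was tested on simulated data of 15521 probe sets, with 50 changed at each fold. It recovered 0% of the changes at 2-fold, 10% at 4-fold, 44% at 8-fold and 56% at 16-fold. It also called 3 unchanged probe sets. A gene without a call can therefore still differ between the eyes. Alternatives covered offset, normalization, filter, block, trend, probe set choice and leaving out each rat.

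The rule named members with a core role and those at least 2-fold apart in the same direction in 3 of 3 rats with the smallest p (up to 6 a direction). It also named those past the threshold and the 4 with the smallest p among rats. Of each partner list it named up to 2 tested genes, those with the smallest p for OS against OD. Members, lists and tests were chosen with earlier results of these data known. Compartments were assigned by hand from general knowledge.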

Additional observations from a re-analysis of the deposited data

Results flagged for a closer look

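In 2 probe sets outside the member list, every array gave more than its background limit. They were in the fit over all probe sets but are no members, because the annotation gives them to more than 1 gene. The probe set listed for both Haus8l2 and Hspa8 had 6459, 4162 and 3629 in OS, against 3867, 3073 and 9790.1 in OD, with a lowest value of 3073. The probe set listed for Hsp90aa1 and a pseudogene of it had 2168, 2519.5 and 4084 in OS, against 3393, 2029 and 5269.6 in OD, with a lowest value of 2029. Their differences were -0.08 ± 1.17 and -0.23 ± 0.49 (SD, n = 3 rats, limma adjusted p = 0.979 and 0.932), with overlapping eyes in both. Neither was counted among the members, since the signal cannot be given to 1 gene.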

How the results depend on the processing

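The counts of lower means given here were chosen after seeing the data. No member passed for OS against OD in any of them except Dnajc6 without rat 1, so the count ran from 0 to 1 with 1 rat left out. The 2 probe sets past the threshold overall became 0 with an offset of 1, after quantile normalization, from the 75th percentile of brightness up, without the trend, without the replicate block and when that replicate block was random. They became 8 with an offset of 64, 9 when nothing was filtered, and 18 to 59 when leaving out a rat. The replicate block changed no call of a member. Among rats, the 390 probe sets became 250 after quantile normalization, 152 from the 75th percentile up, 0 without the trend and 6 to 620 with 1 rat left out. The 1 member, Dnajb6, became 0 without the trend and 0 to 1 with 1 rat left out. From the 75th percentile up, where 21 members were tested, 17 had a lower mean in OS (81.0%, against 56.4% of all genes) and the median was -0.73 (against -0.05 over all probe sets). With 1 rat left out, 25 to 32 had a lower mean and the median ran from -0.70 to -0.26. Signs turned, with 1 rat left out, for Dnaja1 (-0.54 to 0.0062), Dnajb1 (-1.16 to 0.40), Dnajc15 (-0.33 to 0.53), Hsp90b1 (-0.15 to 0.40), Hspa1a (-0.27 to 0.10), Hspa4 (-1.35 to 0.25), Hspa5 (-2.26 to 0.14), Hspa9 (-0.19 to 1.92), Hspd1 (-0.40 to 0.28) and Hsph1 (-0.42 to 0.12). The other 11 of 21 named members tested kept their sign in each alternative that gave them a value. Dnaja3, Dnajb9, Dnajc2 and Hsp90ab1 had none from the 75th percentile up, and Dnajc2 and Hsp90ab1 none with probe sets averaged. The causes were not tested. Many members lie near the background limit, which limits the precision of their differences.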
